A study of Mus musculus with 2 samples.

Results

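The genes described here encode the proteins of the small subunit of the cytoplasmic ribosome. They were chosen by symbol, as the protein-coding mouse genes whose symbol starts with Rps and a digit, together with Rpsa and Fau, leaving out the S6 kinases, the binding protein of Rps19 and symbols of pseudogenes. The rule took 34 of the 43346 Ensembl genes with a value in the deposited tables: the 32 genes of the subunit itself, the paralog Rps27l and the retrogene Rps27rt. Poly(A) RNA was sequenced from Ter119-positive erythroblasts of mouse fetal liver at embryonic day 14.5, pooled from male and female embryos, in 2 libraries that the labels number as biological replicates 2 and 1. No genotype, strain or treatment is named, and both libraries carry the same donor entry under separate biosamples, so part of the spread between them may be technical. With 1 group there is no contrast of conditions. Every difference reported below is between library 2 and library 1.

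The small subunit binds the messenger RNA and holds the decoding centre, where codons are matched to transfer RNAs, while the large subunit forms peptide bonds. Its proteins sit on the 18S ribosomal RNA in a head, a body and a platform, and each is present as a single copy in a finished subunit. Erythroblasts translate large amounts of globin before they lose their ribosomes, and in humans a mutation in 1 copy of several of these genes causes Diamond-Blackfan anaemia, a failure of red cell formation.

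The total of expected counts was 44256287 in library 2 and 51190555 in library 1, and globin genes took 84.4% and 86.0% of the TPM (the deposited level, corrected for transcript length and scaled to the same sum in each library). All 9 erythroblast markers checked, among them Gata1, Klf1, Slc4a1 and Alas2, were at 37.4 TPM or more in both libraries. The markers of hepatocytes, macrophages and leukocytes were at or under 8.05 TPM, the highest being the hepatocyte gene Apoa1 with 8.05 TPM in library 2 and 6.01 TPM in library 1. The libraries were not alike in these markers. By the exact binomial test described below, 5 of the 9 erythroblast markers were higher and 4 lower in library 2. Of 4 hepatocyte markers, 1 was higher and 1 lower. Of 4 macrophage markers 1 was higher, Csf1r, with 178 counts in library 2 and 71 in library 1. Of 3 leukocyte markers, 2 were higher. Over all genes tested, 22.4% were higher and 22.5% lower. In bulk samples such as these, fewer cells of a type and less RNA per cell cannot be told apart.

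All 34 genes reached 1 TPM in both libraries, against 20.0% of the 21474 protein-coding genes with a value. Together they held 9911 TPM in library 2 and 6495 TPM in library 1, a mean of 8203 ± 2416 TPM (SD, n = 2). That was 0.991% of all TPM in library 2 and 0.650% in library 1, and 6.36% and 4.64% of the TPM outside the globin genes. By expected counts the share was 0.873% in library 2 and 0.655% in library 1. Although their products are needed in equal numbers, the levels were far from equal. Among the 32 genes of the subunit the highest mean TPM was 550 times the lowest, and the median over all 34 genes was 105 TPM. The 5 highest genes held 51.6% of the summed mean TPM of the group and the 10 highest 74.4%. By mean TPM, 19 genes were at 100 or more, 12 between 10 and 100, and 3 under 10.

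**Figure D1:**
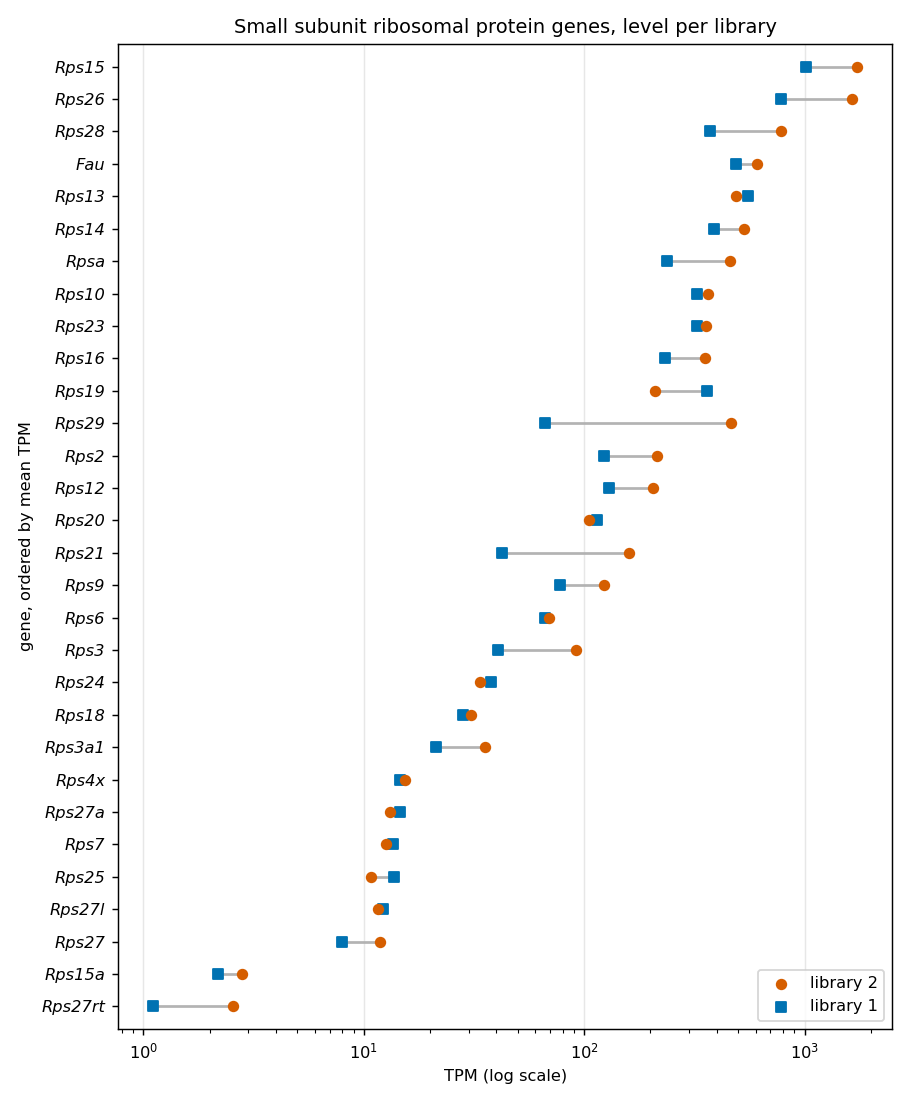
Level of 30 of the 34 genes on a log axis of TPM, with a circle for library 2 and a square for library 1, ordered by the mean. Levels spread from 1.11 TPM (Rps27rt in library 1) to 1733 TPM (Rps15 in library 2), and the widest gap between the libraries is that of Rps29.

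Rps15, a head protein that reaches the decoding site (chr10:80292453-80294114, mm10), was the highest, with 1733 TPM in library 2 and 1015 TPM in library 1 (mean 1374 ± 508, SD, n = 2). Rps26, which lines the exit of the messenger RNA channel (chr10:128624534-128626747), had 1643 TPM in library 2 and 780 TPM in library 1. Rps28, another protein near the channel exit, had 780 TPM in library 2 and 374 TPM in library 1. Library 2 was the higher one for all 3 of these genes. Fau, which is translated as a fusion of a ubiquitin-like protein with the ribosomal protein S30, had 611 TPM in library 2 and 489 TPM in library 1. Rps13, a body protein, had 488 TPM in library 2 and 554 TPM in library 1, the opposite order. These 5 genes stood above the rest by mean TPM, but neighbours in the order were seldom separated: for 7 of the 33 neighbouring pairs the values of the 2 libraries did not overlap.

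At the low end, Rps27rt had 2.55 TPM in library 2 and 1.11 TPM in library 1, from 45.5 and 24.7 expected counts. Rps15a, a body protein, had 2.82 TPM in library 2 and 2.18 TPM in library 1. Rps27, a zinc-binding protein, had 11.9 TPM in library 2 and 7.99 TPM in library 1, and its paralog Rps27l, in mammals also known as a target of p53, had 11.6 and 12.2 TPM. Rps25, which some viral messages need to start translation, had 10.8 TPM in library 2 and 13.7 TPM in library 1. Expected counts behind these low values were 24.7 to 727 per gene and library, so their counting error is larger than that of the genes above. The deposited transcript model of Rps27 was 255 bases long, and its coding sequence in GENCODE M21 is 252 bases without the stop codon. Beside the full coding sequence and stop codon, a model of that length leaves no room for untranslated sequence.

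The remaining genes lay between these ends. Rpsa, whose product also occurs as a laminin receptor at the cell surface (chr9:120127689-120132369), had 461 TPM in library 2 and 237 TPM in library 1. Rps27a, made as a fusion of ubiquitin with the ribosomal protein, had 13.1 TPM in library 2 and 14.7 TPM in library 1. Rps4x, the X-linked body protein, had 15.4 TPM in library 2 and 14.7 TPM in library 1. Rps3a1, a platform protein, had 35.7 TPM in library 2 and 21.2 TPM in library 1. Rps23, at the decoding centre, had 356 TPM in library 2 and 326 TPM in library 1. Rps2 had 213 TPM in library 2 and 123 TPM in library 1, and Rps16 had 353 and 232 TPM. Rps2 and Rps16 differed more between the libraries than Rps23 did. Rps12, a head protein, had 206 TPM in library 2 and 129 TPM in library 1, and Rps9, a body protein, had 124 and 78.0 TPM. Rps18 had 30.8 TPM in library 2 and 28.2 TPM in library 1. Library 2 had the higher TPM for Rps12, Rps9 and Rps18, but the log2 ratio of scaled CPM of Rps18, library 2 over library 1, was -0.02. These values of Rps18 are those of the gene alone. Summed with its sequence copies, other genes that share much of its sequence, Rps18 had a log2 ratio of scaled CPM of 2.14. The symbols Rps4l, Rps12l1, Rps3a2 and Rps3a3 are annotated as pseudogenes in GENCODE M21 and were not counted among the 34.

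Rank depended on whether length was taken into account. Rpsa ranked 1st of the 34 by expected counts, with 60548 counts in library 2 and 39838 in library 1 over a length of 1861 bases, and 8th by mean TPM. Rps20, a head protein that is ubiquitinated when ribosomes stall, ranked 3rd by counts and 17th by TPM. It had 27995 counts in library 2 and 39179 counts in library 1, and 105 and 114 TPM. Of its TPM, 97.8% and 98.2% were assigned to a single annotated transcript of 3706 bases. Across the 34 genes the order by TPM was much the same in both libraries (Spearman correlation 0.957, Pearson correlation of log2(TPM + 1) 0.963, a description over 34 genes).

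The 14 head proteins held 4817 TPM in library 2 and 3086 TPM in library 1, and the median of the mean TPM per gene was 217. Within a library the head median was lower. The middle 2 head genes had 210 and 206 TPM in library 2, and 129 and 114 TPM in library 1. The 18 proteins of the body and platform held 5080 TPM in library 2 and 3395 TPM in library 1, with a median of 101 for the mean TPM. Their middle 2 genes had 159 and 124 TPM in library 2, and 78.0 and 66.1 TPM in library 1. Each of the 2 regions thus held close to the same summed TPM from a different number of genes, and each had its larger sum in library 2. Rack1, a scaffold bound to the head that is not named as a ribosomal protein, had 395 TPM in library 2 and 103 TPM in library 1 (log2 ratio 1.63).

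The 9 genes of the list of human Diamond-Blackfan anaemia genes held 3558 TPM in library 2 and 2003 TPM in library 1. The median of their mean TPM, 266, was the mean of Rps29, whose values differed widely between the libraries. Taken by library, the middle gene of the 9 was lower than that. It was Rps19 for library 2, with 210 TPM, and Rps29 for library 1, with 66.7 TPM. Rps19, the gene most often mutated in that disease, had 210 TPM in library 2 and 361 TPM in library 1. Rps10, at the entry of the messenger RNA channel, had 365 TPM in library 2 and 325 TPM in library 1. Rps29, a small zinc-binding head protein, had 466 TPM in library 2 and 66.7 TPM in library 1. Library 2 was the lower one for Rps19 and the higher one for Rps10 and Rps29. Rps24, a body protein, had 33.8 TPM in library 2 and 38.0 TPM in library 1. Rps7, which in mammals also binds the p53 regulator Mdm2, had 12.6 TPM in library 2 and 13.6 TPM in library 1. With Rps26, Rps28 and Rps27, given above, the list spanned 9.93 to 1211 mean TPM. In the comparison of the libraries given next, 4 of the 9 were higher in library 2, 4 lower, and Rps10 passed in neither direction. Over all genes tested, 22.4% were higher and 22.5% lower in library 2.

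The libraries were compared gene by gene with a two-sided exact binomial test on rounded expected counts, scaled by edgeR factors and adjusted by the Benjamini-Hochberg method over the 10955 genes with at least 10 counts. The test compares these 2 libraries beyond counting error, not conditions. It passed 44.9% of all genes tested, 22.4% higher and 22.5% lower in library 2, and 60.8% of the protein-coding genes with 1 TPM or more in both. Of genes with at least 100 counts in each library, as 32 of the 34 had, it passed 58.3%. Of the 34 genes, 27 passed: 18 were higher and 9 were lower in library 2. Their median log2 ratio of library 2 over library 1 was 0.17, against -0.006 over all genes tested. The median size of the log2 ratio, whatever its sign, was 0.40 for the 34 genes and 0.21 for all genes with at least 100 counts in each library. The intervals that the authors deposited with the TPM values did not overlap between the libraries for 25 of the 34 genes, against 50.5% of the 4296 protein-coding genes with 1 TPM or more in both.

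Rps29 (chr12:69157722-69159186) stood furthest apart. It had 9009 counts in library 2 and 1617 counts in library 1, a log2 ratio of 2.63, with deposited TPM intervals of 451 to 470 and 63.1 to 69.5. Rps21, a small protein of the body (chr2:180257377-180258445), had 3134 counts in library 2 and 1046 counts in library 1, a log2 ratio of 1.73 (exact binomial test, Benjamini-Hochberg adjusted p = 6.15e-301). Rps26 had 38937 counts in library 2 and 23263 counts in library 1, a log2 ratio of 0.93. Rps29 and Rps21 were the 2 genes more than 2-fold apart among the 32 that had at least 100 counts in each library, against 2.19% of all 5256 such genes. Without these 2 genes the mean of the summed TPM was 7836, against 8203 with them.

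Rps19 (chr7:24884371-24889806) lay at the other end, with 4700 counts in library 2 and 9469 counts in library 1, a log2 ratio of -0.81 (exact binomial test, adjusted p = 6.07e-232). Of these, 3697 counts in library 2 and 8513 counts in library 1 were assigned to Rps19-206, a transcript annotated as a retained intron. The lower value of Rps19 in library 2 is thus that of the gene total and of Rps19-206. It was not shown for the annotated coding transcripts, which held 20.8% of the counts in library 2 and 9.92% in library 1. Rps25 had 449 counts in library 2 and 727 counts in library 1, a log2 ratio of -0.47 (exact binomial test, adjusted p = 4.11e-08). Rps24 had 1669 counts in library 2 and 2558 counts in library 1, a log2 ratio of -0.42 (exact binomial test, adjusted p = 7.69e-20). Summed with their sequence copies, Rps25 turned to a log2 ratio of 0.52 and Rps19 moved to -0.11. The other genes lower in library 2, among them Rps13, Rps20, Rps6, Rps27a and Rps7, had log2 ratios between -0.33 and -0.10. Rps6, the substrate of the S6 kinases, was among them at -0.10 in scaled counts, though its TPM was 69.3 in library 2 and 66.1 in library 1. The 2 measures are scaled differently. For Rps13, of the same length in both libraries, library 2 over library 1 was 0.882 by TPM and 0.794 by scaled CPM. For Rps26, also of unchanged length, it was 2.11 and 1.91. A slightly higher TPM in library 2 is therefore not by itself a difference of the gene.

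The genes higher in library 2 besides Rps29, Rps21 and Rps26 had log2 ratios between 0.16 and 0.85. Rps3, which lines the entry of the messenger RNA channel, had 91.7 TPM in library 2 and 40.8 TPM in library 1. Its log2 ratio in scaled counts was 0.85. Rps14, a platform protein whose loss is linked to anaemia in the human 5q- syndrome, had 533 TPM in library 2 and 390 TPM in library 1. Rps27 passed narrowly, with 108 and 88.3 counts (exact binomial test, adjusted p = 0.0487), and did not pass when genes with any count were tested. The 7 genes that passed in neither direction, among them Rps10, Rps23, Rps18, Rps4x, Rps27l and Rps15a, had log2 ratios between -0.20 and 0.14.

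**Figure D2:**
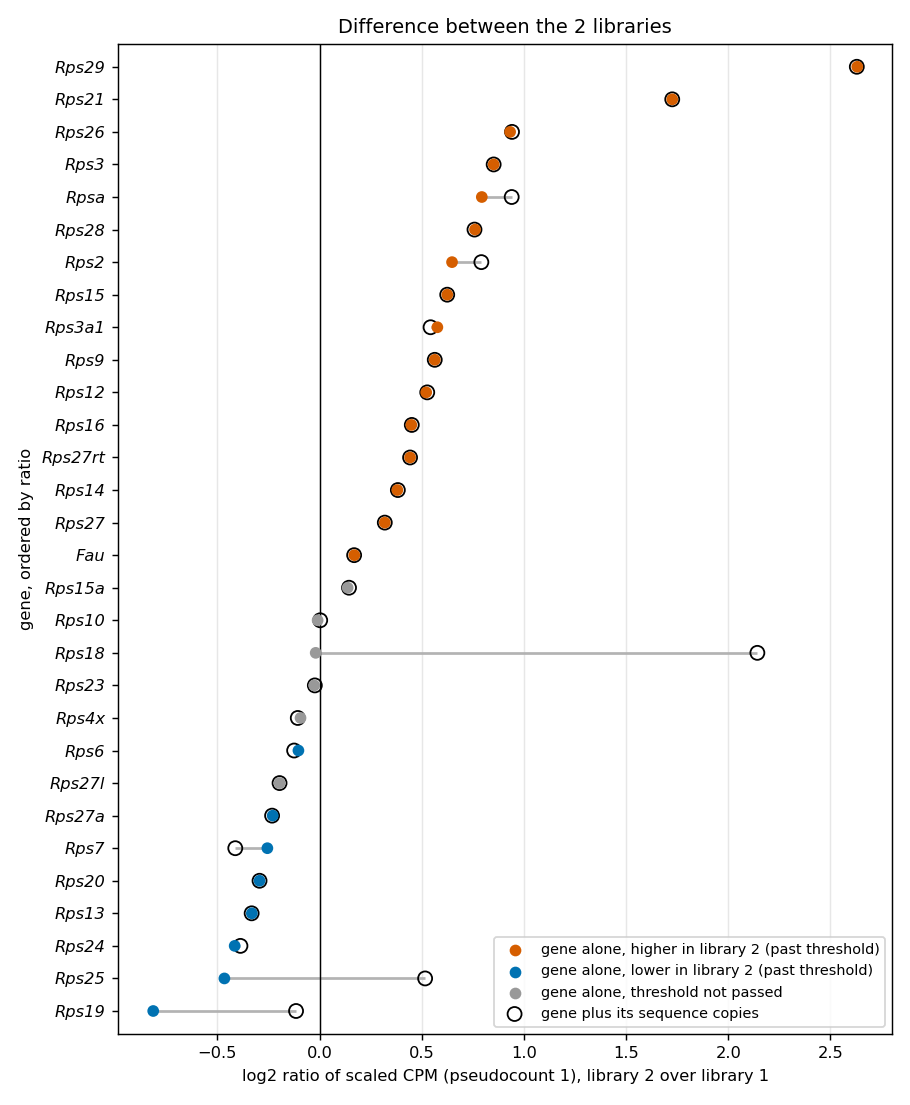
Log2 ratio of scaled CPM (counts relative to the library total), library 2 over library 1, for 30 of the 34 genes (filled circles, coloured by the outcome of the exact binomial test) and for the gene summed with its sequence copies (open circles). The points run from -0.81 (Rps19) to 2.63 (Rps29), and the open and filled circles lie furthest apart for Rps18, Rps25 and Rps19.

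Ribosomal protein messages have many processed pseudogenes, copies of the spliced message inserted elsewhere in the genome, and a read that matches both is divided by the quantifier. Over the 34 genes, a median of 63.0% of the 31-base words of the leading coding transcript also occurred in a transcript of another M21 gene, against 63.2% for the 53 large subunit genes. The share was 8.53% for Rps15a and highest for Rps27 (98.7%), and it was 50% or more for 21 genes. Expected counts were whole numbers in both libraries, within 0.01, for 7 of the 34 genes (among them Rps3, Rps9, Rps20, Rps21 and Rps27l), against 89.0% of 10948 genes with at least 10 counts. Genes outside the 34 with 20% or more of their own words in one of the 34 transcripts were taken as sequence copies. Of these, 258 were found, 195 of them with a value in the tables. They held 65685 counts in library 2 and 36525 counts in library 1, which was 14.5% and 9.82% of the counts of genes and copies together.

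For 7 genes the copies held 10% or more of the joint counts in a library, and for 16 they held under 1% in both. The coding starts of 3 of the 7, and of Rps27, are shown to let the match between gene and copy be seen. Each is the first 90 coding bases from GENCODE M21 transcripts on mm10, 5′ to 3′ on the gene's own strand, with bases that differ between gene and copy in capitals.
Rps18 (chr17:33951999-33956001, minus strand): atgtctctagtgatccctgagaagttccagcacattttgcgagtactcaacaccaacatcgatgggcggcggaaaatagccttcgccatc
Gm10260 (chr13:97760072-97760632, minus strand): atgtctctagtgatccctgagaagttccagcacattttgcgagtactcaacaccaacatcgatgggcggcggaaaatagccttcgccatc
Rps25 (chr9:44407139-44410427, plus strand): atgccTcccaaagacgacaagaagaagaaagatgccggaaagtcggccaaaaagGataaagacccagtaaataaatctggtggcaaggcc
Rps25-ps1 (chr6:145266400-145266777, plus strand): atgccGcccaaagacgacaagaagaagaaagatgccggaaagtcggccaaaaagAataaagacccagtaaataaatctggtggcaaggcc
Rps19 (chr7:24884371-24889806, plus strand): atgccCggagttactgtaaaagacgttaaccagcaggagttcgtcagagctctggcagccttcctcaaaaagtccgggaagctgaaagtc
Rps19-ps6 (chr12:110898114-110898551, plus strand): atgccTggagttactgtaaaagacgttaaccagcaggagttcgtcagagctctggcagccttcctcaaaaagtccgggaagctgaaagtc
Rps27 (chr3:90212522-90213651, minus strand): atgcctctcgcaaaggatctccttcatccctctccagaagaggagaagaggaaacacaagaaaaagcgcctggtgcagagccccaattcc
Rps27rt (chr9:114982366-114982739, minus strand): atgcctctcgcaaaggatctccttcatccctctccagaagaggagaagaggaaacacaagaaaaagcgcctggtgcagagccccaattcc

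Rps18 and Gm10260, which M21 annotates as protein coding, were identical over these 90 bases and differed at 4 of 456 coding bases. Rps18, a head protein, had 904 counts in library 2 and 1046 counts in library 1, and Gm10260 had 6958 and 942 counts. The copies of Rps18 thus held 88.5% of the joint counts in library 2 and 47.6% in library 1. Rps18 alone had a log2 ratio of -0.02 and did not pass, while Rps18 summed with its copies had one of 2.14.

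Rps25 and Rps25-ps1 differed at 4 of 375 coding bases. The copy had 804 counts in library 2 and 258 counts in library 1, against 449 and 727 counts for Rps25, and the summed log2 ratio was 0.52 where the gene alone gave -0.47. Rps19 and Rps19-ps6 differed at 5 of 435 coding bases, and the copy had 4979 counts in library 2 and 2497 counts in library 1. Summed with its copies, Rps19 had a log2 ratio of -0.11 where the gene alone gave -0.81. The lower value of both genes in library 2 therefore came with a higher value of their copies there. The coding sequences of Rps27 and Rps27rt, both among the 34, were identical over all 252 bases. As members, neither was counted as a copy of the other, so both are among the 16 genes under 1%. Rps27rt had 45.5 counts in library 2 and 24.7 in library 1, beside 108 and 88.3 for Rps27.

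Rps2, which lines the entry of the messenger RNA channel, had fewer counts than 1 of its own copies. It had 13794 counts in library 2 and 10027 counts in library 1, while Rps2-ps13 on the X chromosome, 99.2% identical over the coding sequence, had 26183 and 16494. Its copies together held 69.1% of the joint counts in library 2 and 65.9% in library 1. The shares for Rps7 were 44.7% and 50.3%, for Rps10 31.5% and 30.9%, and for Rpsa 18.8% and 10.1%. For Rps2, Rps10 and Rps7 the copies took a similar share in both libraries, while for Rps18, Rps25, Rps19 and Rpsa the share was larger in library 2. Over all 34 genes the median log2 ratio was 0.35 with copies added and 0.17 without. Rps29 and Rps21, the genes furthest apart between the libraries, had 0.417% or less of their joint counts in copies. Whether reads assigned to the copies came from the messages of the 34 genes was not tested.

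**Figure D3:**
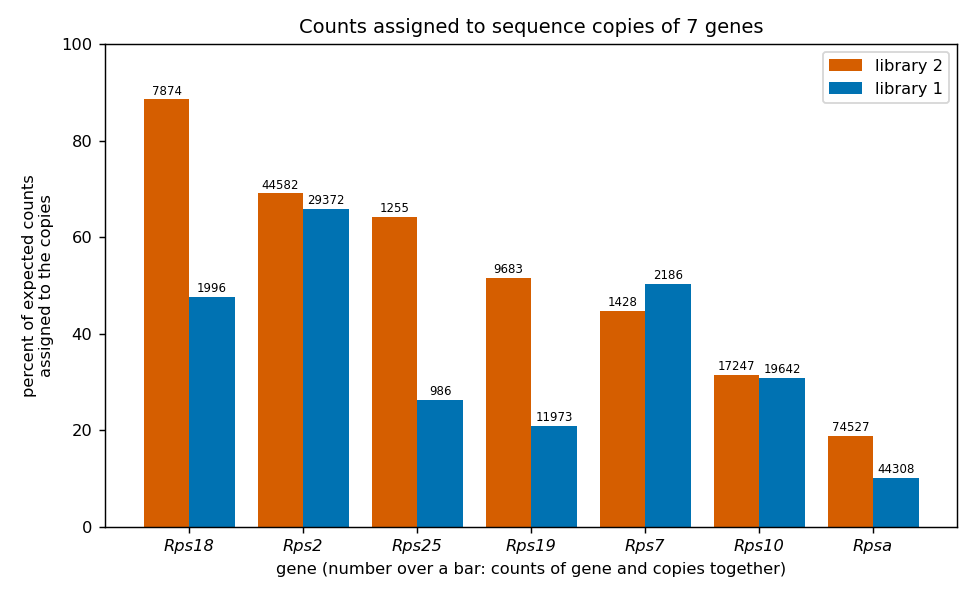
Percent of the expected counts of a gene and its sequence copies that was assigned to the copies, for the 7 genes at 10% or more in a library, with library 2 left of library 1 and the joint count over each bar. Rps18 reaches 88.5% in library 2 and 47.6% in library 1, and Rps2 69.1% and 65.9%.

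The exons of 7 of the 34 genes shared bases with those of another protein-coding or long non-coding gene in M21, and strand use in the counting is not given in the sources used here. Rps18 shared 156 bases with Vps52 on the other strand, which had 2308 counts in library 2 and 2397 counts in library 1. Rps25 shared 462 bases with Trappc4, which had 52 and 28 counts, and 206 bases with Ccdc84, which had 68 and 83 counts. The values of these genes may be uncertain for that reason. These overlaps are those of M21 exons, while the deposited values were made with GENCODE M4, and their effect on the values was not tested.

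Transcripts within a gene were also compared. Of the 34 genes, 11 had 1 transcript in the tables, and 30 had the same leading transcript by TPM in both libraries. The leading transcript held 90% or more of the TPM in both libraries for 18 genes. For 5 genes the leader by mean TPM was one that M21 annotates as a retained intron and not as coding, among them Rps16, Rps18, Rps19 and Rps3. Rps19-206, a retained-intron transcript of 395 bases, held 89.1% of the TPM of Rps19 in library 2 and 95.4% in library 1. Rps18-210 held 87.5% and 88.4% of that of Rps18, and Rps16-202 held 81.9% and 82.6% of that of Rps16, a head protein near the decoding centre. For these 3 genes the annotated coding transcripts thus held a small part of the TPM assigned to the gene itself in both libraries. The coding share was 10.6% in library 2 and 4.54% in library 1 for Rps19. It was 5.30% and 1.24% for Rps18, and 18.1% and 17.3% for Rps16. By expected counts it was 20.8% and 9.92% for Rps19, and 6.38% and 1.35% for Rps18. Reads assigned to sequence copies are not in these shares. Gm10260 had 6958 and 942 counts, and Rps19-ps6 had 4979 and 2497. The copies of Rps16 held 0.333% and 0.191% of its joint counts. Whether reads of the copies came from coding messages of Rps18 and Rps19 was not tested.

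Rps3 had a different leader in each library. Its coding share was 44.5% in library 2 and 62.6% in library 1, so it was the lower in library 2. Rps14 and Rps2 also changed leader, but between transcripts annotated as coding. By expected counts in place of TPM, 32 genes had the same leader, and Rps2 was among those that did not.

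**Figure D4:**
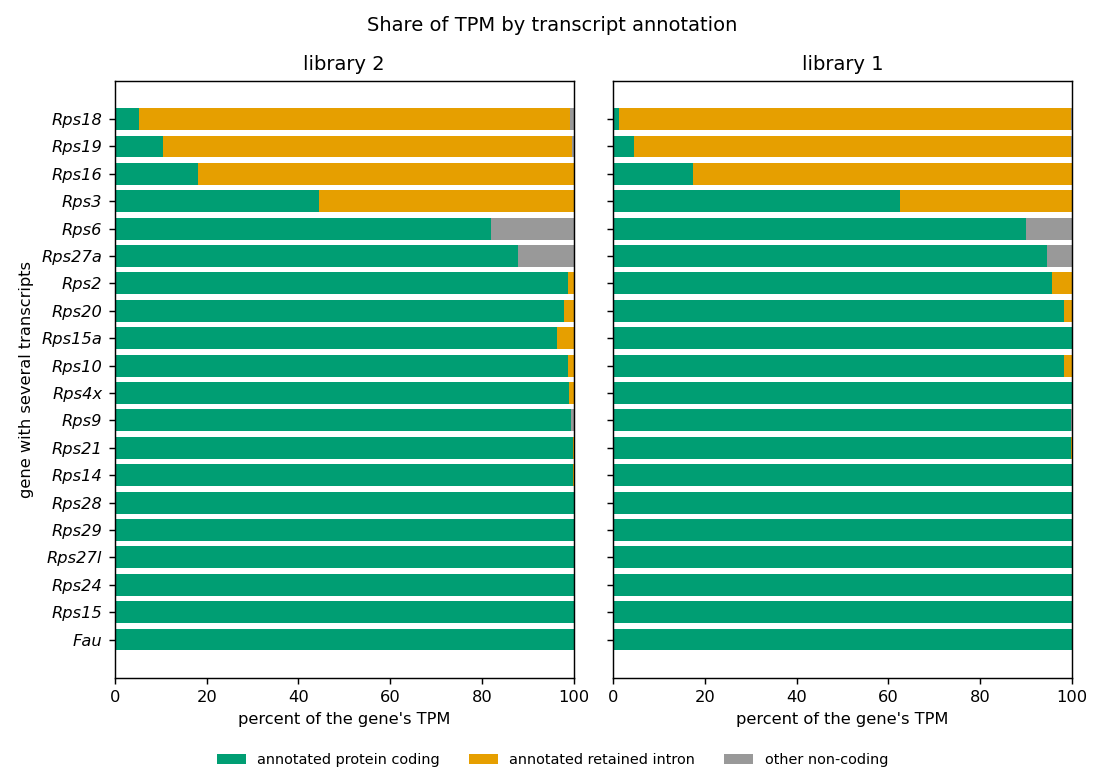
Percent of the TPM of each gene held by transcripts of each M21 annotation, for 20 genes with several transcripts, with library 2 on the left and library 1 on the right. Reads assigned to sequence copies are not included. Retained-intron transcripts hold most of the TPM of Rps18, Rps19 and Rps16 in both libraries. Coding transcripts hold 44.5% of that of Rps3 in library 2 and 62.6% in library 1.

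Levels went with base composition among the 34 genes. The GC content of the coding sequence ran from 45.9% to 59.5%, with a median of 52.7%. Its Spearman correlation with the mean log2(TPM + 1) was 0.72 (Pearson 0.73) over 34 genes, which share libraries and normalization. The 10 genes of highest coding GC, at 56.3% or more, had a median of 347 TPM, and the 10 of lowest, at 50.2% or less, had a median of 14.5 TPM. Of the GC-rich 10, 8 were higher and 1 was lower in library 2. Of the GC-poor 10, 1 was higher and 6 were lower. Over all genes tested, 22.4% were higher and 22.5% lower. Of the lower ones, Rps25 (GC-poor) turned to a log2 ratio of 0.52 with copies added, and Rps19 (GC-rich) moved from -0.81 to -0.11. The GC-rich genes included Rps29, Fau, Rps15, Rps2 and Rps28, and the GC-poor ones Rps24, Rps15a, Rps27a, Rps27l and Rps3a1.

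For the GC content of the whole leading coding transcript, the correlation with level was 0.58 for the 34 genes, 0.52 for the 53 large subunit genes and 0.23 for 4292 protein-coding genes with 1 TPM or more in both libraries (Spearman). The log2 ratio between the libraries had a Spearman correlation of 0.57 with coding GC and of 0.25 with transcript GC over the 34 genes. For the 4292 protein-coding genes the log2 ratio had a Spearman correlation of 0.21 with transcript GC. The part of GC content in the levels was not tested. Coding length, from 168 bases (Rps29) to 885 bases (Rpsa), had a Spearman correlation of 0.05 with level.

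**Figure D5:**
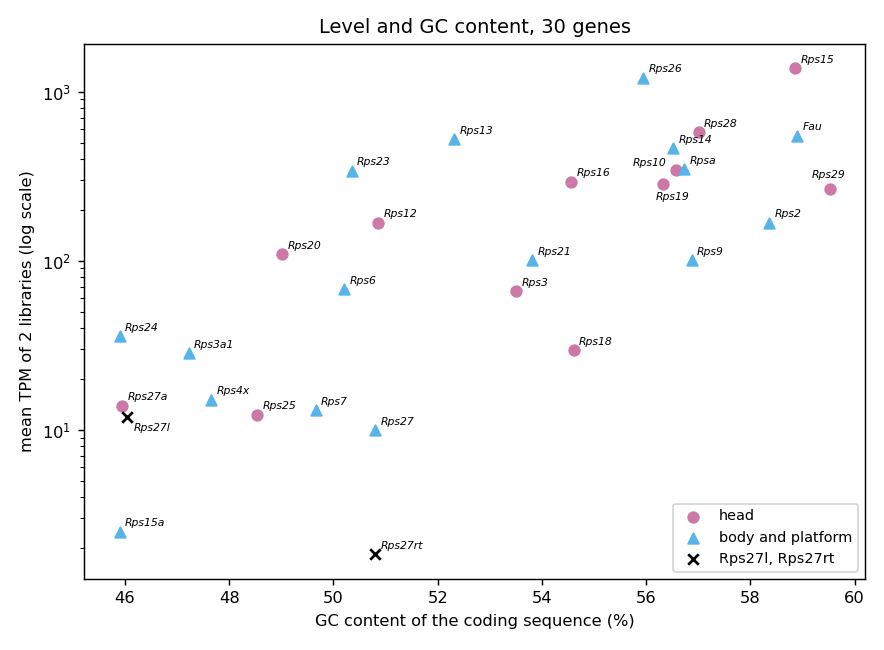
Mean TPM of the 2 libraries on a log axis against the GC content of the coding sequence, for 30 of the 34 genes marked by their place in the subunit. Levels are higher toward the GC-rich side, with a Spearman correlation of 0.72 over all 34.

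Against the large subunit, the 34 genes held less RNA. The 53 large subunit genes summed to 19364 TPM in library 2 and 16304 TPM in library 1. The ratio of small to large subunit TPM was 0.512 in library 2 and 0.398 in library 1, a mean of 0.455 ± 0.080 (SD, n = 2). The median per gene ran the other way, at 105 TPM for the small subunit genes and 37.4 TPM for the large subunit genes, of which 49 reached 1 TPM in both libraries. When genes that share 50% or more of their 31-base words with other genes were left out on both sides, the small subunit sum was the larger in library 2, with a ratio of 1.23, and the smaller in library 1, with a ratio of 0.957. The median log2 ratio between the libraries was 0.17 for the small and 0.15 for the large subunit genes.

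Factors that assemble the small subunit had a median of 1.06 TPM, against 105 TPM for the 34 genes. Of 18 such factors listed, 17 had a value, and 8 of these reached 1 TPM in both libraries, against 20.0% of protein-coding genes. Noc4l was the highest, with 17.3 TPM in library 2 and 14.7 TPM in library 1, followed by the rRNA methyltransferase Emg1 with 11.8 and 14.5 TPM and by Rrp7a with 5.79 and 3.53 TPM. The lowest was Utp20, with 0.06 and 0.09 TPM. By the exact binomial test 5 of the 17 were higher and 7 lower in library 2, against 22.4% higher and 22.5% lower over all genes tested. Of 7 factors that rescue or recycle stalled ribosomes, 6 had a value and 3 reached 1 TPM in both libraries, namely Gtpbp2, Gtpbp1 and Pelo. Of these 6, 1 was higher and 3 were lower in library 2.

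The 34 genes lay on 14 chromosomes, with 9 on chromosome 7. Ribosomal protein messages in mammals typically begin with a C followed by a run of pyrimidines, the terminal oligopyrimidine tract through which growth signals control their translation. RefSeq start windows on GRCm38.p6, from 250 bases before to 50 after the annotated start, were found for 26 of the 34 genes, in 31 windows. Rps14, Rps20, Rps27a and Rps29 were among those with none. A C at the first base followed by at least 4 pyrimidines was present in 8 of the 31 windows, or 25.8%, against 2.51% of all 32851 windows. The 8 are shown from 30 bases before the start, with the tract in capitals beginning at the annotated first base of the message, 5′ to 3′ on the strand of the gene.
Fau (chr19:6057917-6057976, plus strand): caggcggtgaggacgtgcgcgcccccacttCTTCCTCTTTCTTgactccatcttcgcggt
Rps10 (chr17:27635215-27635274, minus strand): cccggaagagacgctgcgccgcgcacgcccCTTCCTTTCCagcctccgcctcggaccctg
Rps18 (chr17:33955636-33955695, minus strand): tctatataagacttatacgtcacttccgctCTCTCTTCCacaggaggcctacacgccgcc
Rps6 (chr4:86857338-86857397, minus strand): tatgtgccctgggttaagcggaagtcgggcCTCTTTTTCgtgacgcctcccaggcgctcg
Rps15a (chr7:118116118-118116177, minus strand): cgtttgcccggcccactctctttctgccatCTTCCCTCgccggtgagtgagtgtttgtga
Rps27 (chr3:90213619-90213678, minus strand): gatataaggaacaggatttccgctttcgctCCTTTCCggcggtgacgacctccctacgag
Rps27rt (chr9:114982710-114982769, minus strand): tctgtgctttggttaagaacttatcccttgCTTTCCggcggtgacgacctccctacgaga
Rps21 (chr2:180257349-180257408, plus strand): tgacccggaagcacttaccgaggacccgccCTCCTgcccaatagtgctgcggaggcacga

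The tract was 13 bases long in Fau and 5 bases long in Rps21. The 8 genes with it had levels from 1.83 mean TPM (Rps27rt) to 550 mean TPM (Fau), so it was found at both ends of the order. In the 30 bases after the start, a run of at least 6 pyrimidines was found in 54.8% of the windows of the 34 genes and in 26.5% of all windows. Searched on both strands of the 300-base windows, CCGGAAG, the core of sites for Ets factors, was found in 38.7% of the windows of the 34 genes and in 8.86% of all windows. AAGATGGC, the core of sites for Yy1, was found in 9.68% and 2.75%, TATAAA in 6.45% and 13.6%, CCAAT in 32.3% and 37.4%, CACGTG in 3.23% and 7.15%, and AGATAA, a form of the site of Gata1, in 3.23% and 11.2%. None of these words contains another. A match describes these letters in these windows, and annotated starts may differ from those used in these cells.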

How the data were processed

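Poly(A) RNA-seq of 2 erythroblast libraries was analysed. Values were deposited per gene and transcript for each library, on mm10 with GENCODE M4, per a deposited listing. The aligner and the quantifier, with their versions and strand use, were not given in the sources used here. Per the file headers, columns carry the names that RSEM uses. Deposited expected counts divide reads that match several genes. The authors' TPM values are corrected for length, the authors' FPKM values and posterior mean TPM were used as alternatives, and the percent of a gene's TPM in each transcript is as deposited. The deposited TPM interval bounds (a signal that is never negative) were used as given. An interval need not hold the TPM itself. For Rps15 in library 2 the TPM was 1733.31, above the upper bound of 1730.21, while the posterior mean TPM was 1714.88.

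Of 69691 rows per gene table, 26345 named no Ensembl gene and were left out. Symbols matched 42462 genes through GENCODE M21, which also gave positions, transcript types and sequences. Expected counts were rounded and scaled by TMM in edgeR 4.0.16 (R 4.3.3). A two-sided exact binomial test with Benjamini-Hochberg adjustment at 0.05 was run on genes with at least 10 counts over the 2 libraries. Ratios use a pseudocount of 1 CPM, correlations log2(TPM + 1). A count of 0 would allow up to 3 counts, 0.0678 CPM in library 2 and 0.0586 in library 1; no gene of the group was at 0. The binomial test covers counting error only, as it takes the expected counts as exact, and quantifier intervals cover counting error and read assignment only. Shared words were counted on either strand over the coding transcript with most expected counts, a choice made after the files were seen; for Rps20 and Rps15a that transcript is several kilobases long, which lowers their share. The binomial test was tested on simulated data. DESeq2 1.42.0 size factors and other settings were alternatives.

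Of the 34 genes, 4 are counted in the totals and not reported singly here. Full values are given for the 5 highest and 5 lowest, the 3 largest ratios each way, paralogs, Rpsa, Fau, Rps27a, the anaemia list, Rack1, and the 3 highest and the lowest assembly factors; other genes named were chosen after their values were seen. The genes and lists were chosen with earlier results of these data known. Of the listed factors, 1 for assembly and 1 for rescue were not analysed here. Python 3.11.15, numpy 2.4.6, pandas 2.3.3, scipy 1.17.1 and matplotlib 3.10.9 were used.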

Additional observations from a re-analysis of the deposited data

How the results depend on the processing

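No paired analysis was possible because both libraries belong to 1 group. The mean share of TPM, 0.820%, was 5.50% with globins left out of the denominator and 0.363% without genes that share 50% or more of their 31-base words. The ratio of small to large subunit TPM, 0.455, was 0.540 by expected counts and 1.10 without such genes. The median log2 ratio, 0.17, was 0.32 from deposited TPM and 0.35 with sequence copies added, a setting chosen after seeing the data. The median of shared words, 63.0%, was 56.1% with 50-base words. The log2 ratio of Rps10, -0.0093, turned to 0.0097 by total counts, 0.0025 by total counts outside the globins and 0.0034 with copies. With copies, that of Rps18 turned to 2.14 and that of Rps25 to 0.52. Over the settings tried, the number of genes passing the binomial test was 26 to 28. Leaving out a library gave a share of 0.650% to 0.991%, a subunit ratio of 0.398 to 0.512 and a median level of 72.3 to 142 TPM. With 2 libraries from 1 donor entry, the spread between erythroblast preparations cannot be estimated beyond these values.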
